A study of Mus musculus with 37 samples.

Results

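The trafficking genes S1pr1, S1pr4, S1pr5, Cxcr3, Cxcr4, Ccr2, Cx3cr1 and Cd27 were followed through RNA-seq libraries of uterine natural killer (uNK) cells. They were chosen by name as receptors that guide NK cells out of and into tissues, with earlier results of these data known, and all 8 were found among the 53700 genes counted in each of 37 libraries. uNK cells are the NK cells of the pregnant uterus. They were sorted at gestation day 9.5 to 10.5 from C57BL6 mice as live cells positive for CD45 and NKp46 and negative for CD3, CD4, CD8 and high CD11b, among other markers. NK cells are said to be educated when an inhibitory receptor on them recognises a self MHC class I molecule. From WT mice there were 9 libraries of uneducated cells (negative for both NKG2A and Ly49C/I), 9 of NKG2A+ cells (negative for Ly49C/I) and 6 of Ly49C/I+ cells (negative for NKG2A). From mice of the genotype NKG2A KO there were 8 libraries of uneducated cells and 5 of Ly49C/I+ cells, each negative for NKG2A by its gate. Cells positive for both receptors were not collected, the ages of the mice are not in the labels, and no source used here says how many uteri a library holds or how the NKG2A KO mice were made.

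Sphingosine 1-phosphate (S1P) is a lipid kept high in blood and lymph and low inside tissues, and lymphocytes leave tissues along this gradient with receptors of the S1P family. T cells and B cells leave mainly through S1pr1, whereas NK cells rely on S1pr5, whose gene depends on the transcription factor T-bet (Tbx21), and S1pr1 is placed under Klf2 and is held inside the cell by Cd69. Chemokine receptors act in the other direction or as anchors: Cxcr4 holds cells near its ligand Cxcl12, Cxcr3 follows the interferon-induced ligands Cxcl9 and Cxcl10, Ccr2 follows Ccl2, and Cx3cr1 binds the membrane-tethered chemokine Cx3cl1. Cd27 is a receptor of the TNF receptor family that is lost from mouse NK cells as they mature. These sentences are background and not results of the libraries described here.

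A library held 13287163 to 18875033 reads on genes (median 17273311), and CPM below, counts scaled to a common library size, use TMM factors over all 37 libraries. Defining NK cell genes were present in every library, with Ncr1 (NKp46) between 488 and 1022 CPM. NKp46 was a marker of the sort, so the level of Ncr1 cannot check the cell type. Klrc1, which encodes NKG2A, lay between 494 and 760 CPM in NKG2A+ libraries and between 0.766 and 13.8 CPM in the other 4 groups. Both NKG2A KO populations were gated as NKG2A-negative, so this level cannot check the genotype. Libraries 5 of WT uneducated, 5 of WT Ly49C/I+, 5 of NKG2A KO Ly49C/I+ and 9 of NKG2A+ cells held the fewest genes with a count, between 13982 and 14197 against up to 17859 elsewhere, and the calls of the 8 genes without them are given with each comparison. Replicates are separate samples by their labels, but no label says that each came from another animal, so p-values measure the spread between these samples, which may be in part technical.

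All 8 genes were placed on GRCm38 with the GENCODE M21 annotation. The S1P receptors are S1pr1 (ENSMUSG00000045092) on chr3:115710433-115715072, S1pr4 (ENSMUSG00000044199) on chr10:81497747-81500132 and S1pr5 (ENSMUSG00000045087) on chr9:21242912-21248443, each on the minus strand. Of the chemokine receptors, Cxcr3 (ENSMUSG00000050232) on chrX:101731535-101734269, Cxcr4 (ENSMUSG00000045382) on chr1:128588199-128592293 and Cx3cr1 (ENSMUSG00000052336) on chr9:119901616-120069879 lie on the minus strand, and Ccr2 (ENSMUSG00000049103) on chr9:124101950-124113557 lies on the plus strand. Cd27 (ENSMUSG00000030336) lies on the minus strand of chr6:125232622-125237010. No source used here says whether strand was used in counting. Reads could therefore be shared where S1pr5 overlaps 51 exonic bases of the oppositely oriented Gm48303 and where Cx3cr1 overlaps 78 of Gm33858. Of the 50-base stretches of Cd27, 3.31% are also in Mir8113, which lies inside it, and at most 1.91% of those of any other of the 8 genes occur in another gene.

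RefSeq promoters of build GRCm38.p6 were matched by symbol for 7 of the 8 genes, and S1pr1 had no entry. The 250 bases before the start are printed for the 4 genes whose RefSeq and GENCODE starts lay within 20 bases of each other. They are S1pr5 (chr9:21248444-21248693), S1pr4 (chr10:81500138-81500387), Cxcr4 (chr1:128592300-128592549) and Cd27 (chr6:125237028-125237277), each written 5′ to 3′ on the minus strand. Capitals mark matches on either strand to CACCC, the core bound by Krüppel-like factors, and to CACCTG, an E-box of the kind bound by ZEB proteins; matches to GGTGTG, the core bound by T-box factors such as T-bet, would be in capitals too.
S1pr5: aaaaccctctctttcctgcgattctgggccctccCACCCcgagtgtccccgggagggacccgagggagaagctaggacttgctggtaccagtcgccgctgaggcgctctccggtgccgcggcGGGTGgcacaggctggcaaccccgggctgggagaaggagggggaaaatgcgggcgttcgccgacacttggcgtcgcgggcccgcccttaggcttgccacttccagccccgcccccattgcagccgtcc
S1pr4: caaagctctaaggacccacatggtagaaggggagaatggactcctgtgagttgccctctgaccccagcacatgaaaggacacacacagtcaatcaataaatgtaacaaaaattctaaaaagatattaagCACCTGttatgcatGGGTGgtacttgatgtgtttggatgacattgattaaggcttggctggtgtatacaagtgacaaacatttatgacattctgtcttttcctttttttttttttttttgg
Cxcr4: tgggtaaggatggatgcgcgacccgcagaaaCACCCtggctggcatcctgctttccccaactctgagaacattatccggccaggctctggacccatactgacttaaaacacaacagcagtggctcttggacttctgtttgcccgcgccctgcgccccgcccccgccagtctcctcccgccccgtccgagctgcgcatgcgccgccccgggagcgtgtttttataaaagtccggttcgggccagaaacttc
Cd27: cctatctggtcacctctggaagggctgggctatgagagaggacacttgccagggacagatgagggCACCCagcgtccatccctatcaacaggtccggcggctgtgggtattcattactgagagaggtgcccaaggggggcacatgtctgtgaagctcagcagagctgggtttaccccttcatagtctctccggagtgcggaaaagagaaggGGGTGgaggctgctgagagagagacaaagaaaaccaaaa
No match overlapped another. CACCC was found in 5 of the 7 promoters and in 52% of the 32851 promoters of the table, with 2 matches each in S1pr5 and Cd27 and 1 each in S1pr4, Cxcr4 and Cx3cr1. CACCTG was found in S1pr4 and Cxcr3, against 17.2% of all promoters. GGTGTG was in none of the 7, against 16.3% of all promoters, which says only that these letters are not in these windows. Ccr2 held none of the 3 motifs.

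Per kilobase of exon, Ccr2 was the highest of the 8 genes in every group, with mean levels between 82.7 CPM per kb in NKG2A KO uneducated cells and 96.0 CPM per kb in WT Ly49C/I+ cells. Cxcr3 came next, with mean levels between 39.8 CPM per kb in WT uneducated and 86.7 CPM per kb in NKG2A+ cells. The lowest mean levels in WT uneducated cells were those of Cx3cr1 (3.17 CPM per kb) and S1pr1 (3.91 CPM per kb), and in WT Ly49C/I+ cells S1pr1 was lowest at 1.41 CPM per kb. Ccr2 lay between 480 and 687 CPM in WT uneducated libraries (median 609) and between 454 and 869 CPM in NKG2A+ libraries (median 649). It was therefore abundant and nearly level over the groups, while each of the others moved in at least 1 comparison.

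Ordered by median CPM, NKG2A+ libraries were highest for S1pr1, S1pr4, Cxcr3, Cxcr4, Cd27 and Ccr2, and NKG2A KO Ly49C/I+ libraries were highest for S1pr5 and Cx3cr1. WT uneducated libraries were lowest for 6 of the 8 genes, the exceptions being S1pr1, lowest in WT Ly49C/I+ libraries, and Ccr2, lowest in NKG2A KO uneducated ones. For S1pr1 the medians went from 43.2 CPM in NKG2A+ through 24.0 in NKG2A KO uneducated, 9.82 in WT uneducated and 8.22 in NKG2A KO Ly49C/I+ to 1.61 CPM in WT Ly49C/I+ libraries. For S1pr5 they went from 143 CPM in NKG2A KO Ly49C/I+ through 67.2 in NKG2A+, 55.2 in NKG2A KO uneducated and 47.3 in WT Ly49C/I+ to 27.4 CPM in WT uneducated libraries. The S1P receptors thus put the same 5 groups in different orders.

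For Cxcr4 the medians were 62.2 CPM in NKG2A+, 42.8 in NKG2A KO Ly49C/I+, 34.5 in WT Ly49C/I+, 33.4 in NKG2A KO uneducated and 23.6 CPM in WT uneducated libraries. Cd27 had the same order, at 66.7, 60.2, 56.4, 42.8 and 41.4 CPM, and so had S1pr4, at 36.7, 27.9, 26.8, 23.1 and 16.6 CPM. Cxcr3 had NKG2A KO uneducated libraries above WT Ly49C/I+ ones, at 146, 113, 96.4 (NKG2A KO uneducated), 92.9 (WT Ly49C/I+) and 77.0 CPM. Cx3cr1 had medians of 40.6 CPM in NKG2A KO Ly49C/I+, 27.0 in NKG2A+, 19.4 in WT Ly49C/I+, 15.8 in NKG2A KO uneducated and 13.4 CPM in WT uneducated libraries. In all 8 orders the range of each group overlapped with that of the next, and neighbours that are not named in a comparison below were not tested against each other. The plot of CPM by library shows this for each gene.

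**Figure D1:**
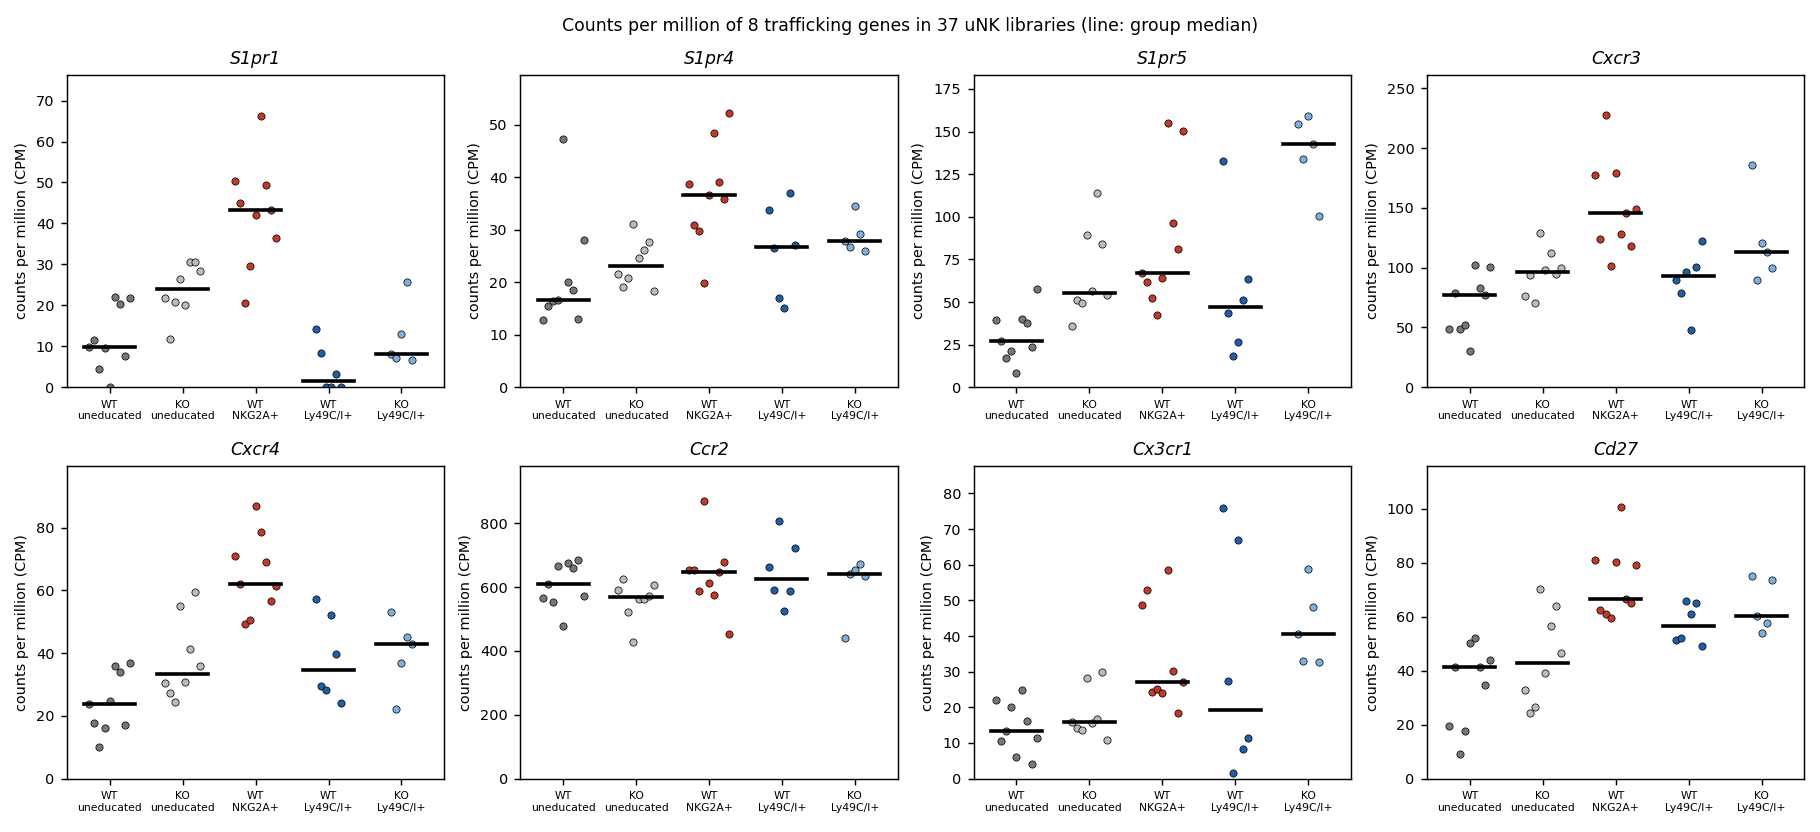
CPM (vertical axis, from 0) of each of the 8 genes in each of the 37 libraries, by group on the horizontal axis; a point is a library and the line is the group median. Cxcr4 and Cd27 are higher in all 9 NKG2A+ libraries than in any of the 9 WT uneducated ones, S1pr1 is near 0 in several WT Ly49C/I+ libraries, and Ccr2 overlaps in all 5 groups.

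In WT mice, NKG2A+ cells had more RNA of 7 of the 8 genes than uneducated cells, by 1.77-fold (S1pr4) to 3.57-fold (S1pr1), and Ccr2 was the exception. All 3 S1P receptors among the 8 rose, with S1pr1 and S1pr5 more than S1pr4. Cxcr3, Cxcr4 and Cx3cr1 rose too, as did Cd27. With edgeR's quasi-likelihood test, 7 of 8 passed an adjusted p of 0.05 upward, beside 7.47% of the 9339 genes tested (15.0% in either direction), and 0 of 8 passed downward, beside 7.56%. In bulk samples, fewer cells that hold a transcript and less of it per cell cannot be told apart, here and in all comparisons that follow.

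S1pr1 ranged from 0 to 22.0 CPM in WT uneducated libraries (median 9.82) and from 20.6 to 66.1 CPM in NKG2A+ libraries (median 43.2). All but 1 of the 9 NKG2A+ libraries lay above every uneducated library. The log2 fold change was 1.84 (SE 0.46, adjusted p = 0.00936). The uneducated library at 0 was number 5, where a count of 0 allows up to 0.202 CPM, and leaving out that library and the others with few genes kept the call.

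S1pr5, the S1P receptor that NK cells use to leave tissues, ranged from 8.20 to 57.6 CPM in uneducated libraries (median 27.4) and from 42.3 to 155 CPM in NKG2A+ libraries (median 67.2). Of the 9 NKG2A+ libraries, 7 were above all uneducated ones, so the groups overlapped at their edges. The log2 fold change was 1.50 (SE 0.30, adjusted p = 0.00178). S1pr4, a receptor found mostly on blood cells, went from a median of 16.6 CPM (12.8 to 47.3) to 36.7 CPM (19.8 to 52.2), with a log2 fold change of 0.82 (SE 0.24, adjusted p = 0.0212). Its overlap was the widest of the 7, with 2 NKG2A+ libraries above all uneducated ones, and the 47.3 CPM was that of uneducated library 5.

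Among chemokine receptors, Cxcr4 gave the smallest adjusted p of the 8 genes. It lay between 10.2 and 36.8 CPM in uneducated libraries (median 23.6) and between 49.3 and 86.8 CPM in NKG2A+ libraries (median 62.2), so the groups did not overlap. The log2 fold change was 1.44 (SE 0.21, adjusted p = 7.53e-05). Cxcr3 went from a median of 77.0 CPM (30.2 to 102) to 146 CPM (102 to 228), and 8 of 9 NKG2A+ libraries were above all uneducated ones. Its log2 fold change was 1.12 (SE 0.20, adjusted p = 0.00062). Cx3cr1 was a low transcript in both groups, at 4.19 to 25.0 CPM (median 13.4) and 18.4 to 58.6 CPM (median 27.0), with 6 NKG2A+ libraries above all uneducated ones. Its log2 fold change was 1.27 (SE 0.31, adjusted p = 0.00693). Ccr2 had a log2 fold change of 0.07 (SE 0.10, adjusted p = 0.672), so no change was detectable at this spread.

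Cd27 lay between 8.93 and 51.9 CPM in uneducated libraries (median 41.4) and between 59.3 and 100.7 CPM in NKG2A+ libraries (median 66.7). Like Cxcr4 it did not overlap between the 9 and 9 libraries, with a log2 fold change of 1.09 (SE 0.25, adjusted p = 0.00436). The share of all genes without overlap was not counted, here or in later comparisons, so a lack of overlap is a description only. The 7 calls were kept under each of the 29 other settings and left-out libraries that were tried, the fit without the libraries with few genes included. Some T cell markers and some immediate early genes rose beside these 7, and their part in the result was not tested. The summed CPM of 8 T cell markers was between 189 and 296 in uneducated and between 221 and 464 in NKG2A+ libraries. Of the 5 markers tested Cd3e, Cd3d and Trbc2 rose. The other tested markers, Cd3g and Trac, had no log2 fold change above 0 and did not pass. Cd4, Cd8a and Cd8b1 had a median of 0 CPM in both groups. The summed CPM of 11 immediate early genes, which respond to tissue dissociation, was between 4783 and 8182 in uneducated and between 6190 and 10273 in NKG2A+ libraries, and 4 of 11 rose (Nr4a1, Dusp1, Atf3 and Ier2). Among these, Ier2 was lost in 13 of the 29 other settings. The summed CPM of 9 myeloid markers was between 219 and 553 in uneducated and between 262 and 694 in NKG2A+ libraries. In uneducated libraries Itgax had the highest median of these 9 markers, as given below. Of these markers 4 were tested, all 4 with a log2 fold change above 0, and 0 passed. Their part in the result was not tested either.

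In Ly49C/I+ cells of WT mice the same comparison with uneducated cells called 0 of the 8 genes by edgeR's quasi-likelihood test, beside 9.30% of 9292 genes tested in either direction. Of the 8 genes 3 had an unadjusted p under 0.05 (S1pr5, Cxcr4 and Cd27), and 0 passed by the likelihood ratio test or by DESeq2. All fold changes but that of S1pr1 were above 0. Without the 4 libraries with few genes, 0 of 8 passed as well. Comparisons that share the uneducated libraries are given side by side and not counted against each other.

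S1pr1 was at 14.2, 8.43, 3.17 and 0.0554 CPM in Ly49C/I+ libraries 1, 2, 7 and 8 and at 0 in libraries 4 and 5, where a count of 0 allows up to 0.178 and 0.192 CPM. The 6 values lay within the range of uneducated libraries (0 to 22.0 CPM), with a log2 fold change of -1.48 (SE 1.06, adjusted p = 0.42). S1pr5 was at 133 CPM in library 1 and between 18.6 and 63.6 CPM in the other 5, with a log2 fold change of 0.88 (SE 0.39, adjusted p = 0.168). Cx3cr1 split widely, from 1.60 to 76.1 CPM (median 19.4), and its log2 fold change of 1.15 had an SE of 0.57 (adjusted p = 0.219). The spread among these 6 libraries was larger for both genes than among the 9 NKG2A+ ones relative to their means.

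Cxcr4 had a median of 34.5 CPM (24.2 to 57.2) in Ly49C/I+ libraries, with a log2 fold change of 0.67 (SE 0.27, adjusted p = 0.133). Cd27 had a median of 56.4 CPM (49.1 to 65.8), 4 of 6 libraries above all uneducated ones, and a log2 fold change of 0.73 (SE 0.29, adjusted p = 0.118). Cxcr3 (log2 fold change 0.36, adjusted p = 0.381), S1pr4 (0.31, adjusted p = 0.56) and Ccr2 (0.09, adjusted p = 0.665) overlapped with uneducated libraries. With the spread estimated from all 5 groups in 1 fit, Cxcr4 and Cd27 passed. With the replicate number as a block, Cxcr3 and Cxcr4 passed, and Cd27 too when an offset for GC content and length was added. Cxcr4 and Cd27 were each higher in 6 of 6 same-numbered pairs, and Cxcr3 in 5 of 6. No label ties these numbers to an animal, so the calls of Cxcr3, Cxcr4 and Cd27 depended on the fit. Summed myeloid markers were between 219 and 553 CPM in uneducated and between 487 and 714 CPM in Ly49C/I+ libraries, and their part was not tested. Itgax (a median of 304 CPM in uneducated and 522 in Ly49C/I+ libraries), Lyz2 (18.0 and 31.8) and C1qb (3.69 and 9.92) were higher in the latter by median, Cd14 was not (16.8 and 12.2), and Csf1r, Adgre1, Fcgr1 and Flt3 had medians under 1 CPM in the latter. Of the 9, 3 were tested and 0 passed.

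**Figure D2:**
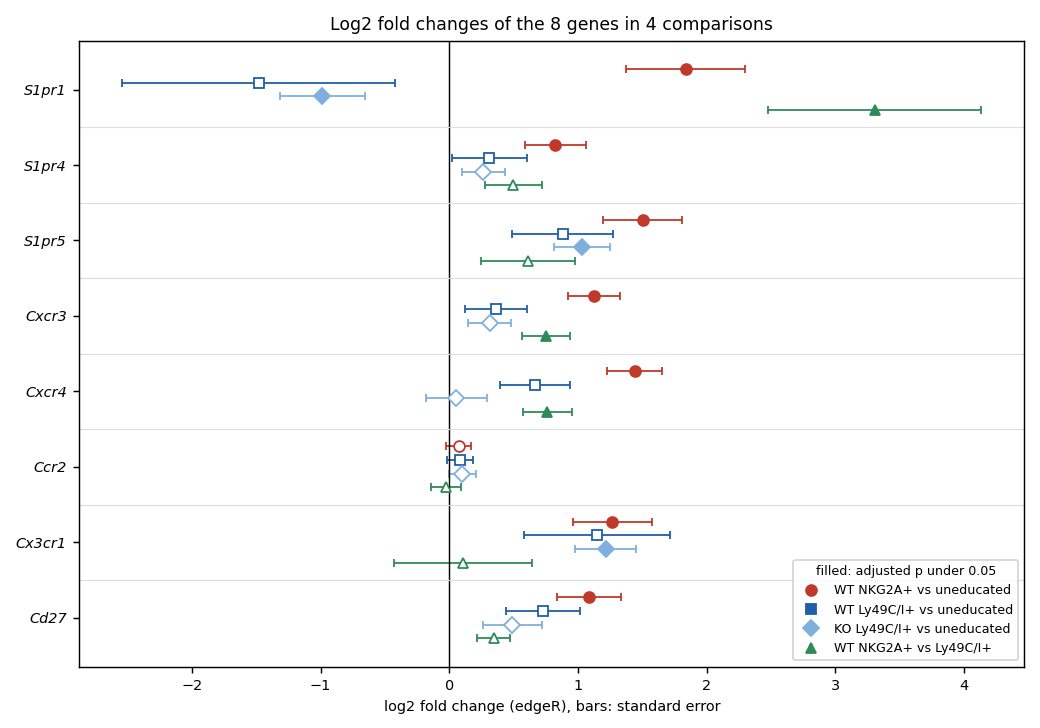
Log2 fold change (horizontal axis) with its standard error (bar) for each of the 8 genes in 4 comparisons, each with its own colour and shape; filled symbols passed an adjusted p of 0.05. In NKG2A+ against uneducated cells 7 symbols are filled and to the right of 0, and S1pr1 in Ly49C/I+ against uneducated cells lies to the left of 0 in both genotypes (-1.48 and -0.98).

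The direct comparison of the 2 educated populations of WT mice called S1pr1, Cxcr3 and Cxcr4, each higher in NKG2A+ cells. That is 3 of 8, beside 1.31% of 9308 genes called in that direction and 2.73% in either, and 0 of 8 were lower, beside 1.42%. S1pr1 did not overlap, with every NKG2A+ library (20.6 to 66.1 CPM) above every Ly49C/I+ library (0 to 14.2 CPM). Its log2 difference was 3.31 (SE 0.83, adjusted p = 0.0378), the widest of the 8.

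Cxcr3 differed by 0.75 on the log2 scale (SE 0.19, adjusted p = 0.0378), with a median of 92.9 CPM (47.8 to 122) in Ly49C/I+ libraries and 7 of 9 NKG2A+ libraries above all of them. Cxcr4 differed by 0.76 (SE 0.19, adjusted p = 0.0369), with 6 of 9 above. These 3 calls were close to the threshold: of 26 other settings and left-out libraries, 12 put the adjusted p of S1pr1 above 0.05, 15 that of Cxcr3 and 13 that of Cxcr4, while the direction held in all of them. Without Ly49C/I+ library 7, for example, none of the 3 passed (adjusted p of 0.0892, 0.0672 and 0.075), and without the libraries with few genes S1pr1 and Cxcr4 passed and Cxcr3 did not (adjusted p = 0.0609). Cd27 (0.35, adjusted p = 0.145), S1pr4 (0.50, adjusted p = 0.239), S1pr5 (0.61, adjusted p = 0.401), Cx3cr1 (0.11, adjusted p = 0.944) and Ccr2 (-0.02, adjusted p = 0.938) did not pass.

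In NKG2A KO mice, Ly49C/I+ cells were set against uneducated cells of the same genotype. S1pr5 and Cx3cr1 rose and S1pr1 fell, so 3 of 8 passed, beside 16.3% of 9299 genes tested. By direction, 2 of 8 rose beside 7.34% of genes, and 1 of 8 fell beside 8.99%. S1pr5 was at 155, 134, 159, 143 and 100.6 CPM in Ly49C/I+ libraries 4 to 8 and between 35.9 and 114 CPM in uneducated libraries (median 55.2). Of the 5, 4 were above all uneducated libraries, and the log2 fold change was 1.03 (SE 0.22, adjusted p = 0.00505).

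Cx3cr1 was at 40.6, 33.0, 58.8, 48.1 and 32.8 CPM in these 5 libraries and between 10.9 and 29.8 CPM in uneducated libraries (median 15.8), without overlap. Its log2 fold change was 1.22 (SE 0.24, adjusted p = 0.00308), and it failed in 1 of 24 other settings, with all 5 groups in 1 fit (adjusted p = 0.0769). S1pr1 was at 8.22, 7.04, 13.1, 25.7 and 6.77 CPM against 11.8 to 30.5 CPM (median 24.0), so 3 of 5 lay below every uneducated library. It fell by 0.98 on the log2 scale (SE 0.33, adjusted p = 0.048), and 17 of the 24 other settings put it above the threshold, among them the fit without the libraries with few genes (adjusted p = 0.103), where S1pr5 and Cx3cr1 passed. The 2 S1P receptors thus had opposite signs in these cells.

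The remaining members did not pass in NKG2A KO mice. Cd27 had a log2 fold change of 0.49 (adjusted p = 0.153), Cxcr3 of 0.31 (adjusted p = 0.208), S1pr4 of 0.27 (adjusted p = 0.292), Ccr2 of 0.10 (adjusted p = 0.542) and Cxcr4 of 0.05 (adjusted p = 0.905). The summed CPM of the 11 immediate early genes was between 5171 and 11348 in uneducated and between 9059 and 14630 in Ly49C/I+ libraries of these mice, and 3 of 11 rose (Dusp1, Junb and Ier2). The part of this difference in the result was not tested. T cell markers did not pass in either direction there, with 4 of 8 tested and sums of 249.7 to 379 and 267 to 357 CPM.

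Genotypes were compared within each gate. In mice without NKG2A, cells that would be NKG2A+ in WT mice cannot be left out by that marker. The NKG2A KO gates may therefore hold cells that the WT gates of the same name exclude, and their share was not tested. Here and in the genotype comparisons below, gates of the same name are compared, which need not hold the same mix of cells. Between NKG2A KO and WT uneducated cells 0 of the 8 genes passed, as did 0% of 9288 genes by edgeR's quasi-likelihood test. Of all genes 619 had an unadjusted p under 0.05, and 1 gene passed by the likelihood ratio test and 1 by DESeq2, neither one a member. S1pr5 had a median of 55.2 CPM in NKG2A KO and 27.4 CPM in WT uneducated libraries, a log2 difference of 1.15 (SE 0.29) with an adjusted p of 0.507. Cxcr4 differed by 0.67 (adjusted p = 0.636), S1pr1 by 1.00 (adjusted p = 0.757) and Cxcr3 by 0.49 (adjusted p = 0.701). The 3 with an unadjusted p under 0.05 were S1pr5, Cxcr3 and Cxcr4, all higher in NKG2A KO libraries.

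Between NKG2A KO and WT Ly49C/I+ cells 0 of the 8 genes passed, beside 0% of 9344 genes, although 1001 genes had an unadjusted p under 0.05, and 62 passed by the likelihood ratio test and 118 by DESeq2, none of them a member. S1pr5 was the 1 member with an unadjusted p under 0.05. Its 5 NKG2A KO values (100.6 to 159 CPM) lay above those of 5 of 6 WT libraries, the exception being WT library 1 at 133 CPM, with a log2 difference of 1.30 (SE 0.37, adjusted p = 0.251). Without that library it passed (adjusted p = 0.0294). The effect of Ly49C/I+ against uneducated differed between genotypes for 0 of 8 members and 0% of 9322 genes, where 414 had an unadjusted p under 0.05, 0 passed by the likelihood ratio test and 1 by DESeq2. For S1pr1 that difference was 0.48 (SE 1.14) and for Cxcr4 it was -0.63 (SE 0.39), each with an adjusted p of 0.998. Without the libraries with few genes, 0 of 8 passed in either comparison of genotypes and none in the difference of effects.

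S1pr5 and S1pr1 were then set against each other within each library, a measure chosen after their values were seen. The quantity was log2(S1pr5 CPM + 1) minus log2(S1pr1 CPM + 1), so that a scaling of the whole library largely drops out. It was 1.52 ± 0.73 (SD, n = 9) in WT uneducated, 0.93 ± 0.52 (n = 9) in NKG2A+ and 4.01 ± 1.30 (n = 6) in WT Ly49C/I+ libraries. In NKG2A KO mice it was 1.41 ± 0.46 (n = 8) in uneducated and 3.56 ± 0.68 (n = 5) in Ly49C/I+ libraries. The mean was higher in Ly49C/I+ than in uneducated libraries of both genotypes.

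The WT Ly49C/I+ libraries were higher than WT uneducated ones by 2.49, with 4 of 6 above all 9, and NKG2A KO Ly49C/I+ libraries were higher than uneducated ones by 2.15, with 5 of 5 above all 8. NKG2A+ and WT Ly49C/I+ libraries differed by -3.08 and NKG2A+ and uneducated WT libraries by -0.59. These differences are a description. An exact permutation test was run on them, but its p-values are not given, since both genes were picked for their values. Some S1pr1 values are 0 or near 0, so the added 1 CPM bears on the size: with 0.5 in its place the WT difference between Ly49C/I+ and uneducated libraries was 2.88 and that in NKG2A KO mice 2.19. Across all 37 libraries with group means removed, the log2 values of S1pr1 and S1pr5 had a Pearson r of 0.718, a description over libraries that share preparation and depth.

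**Figure D3:**
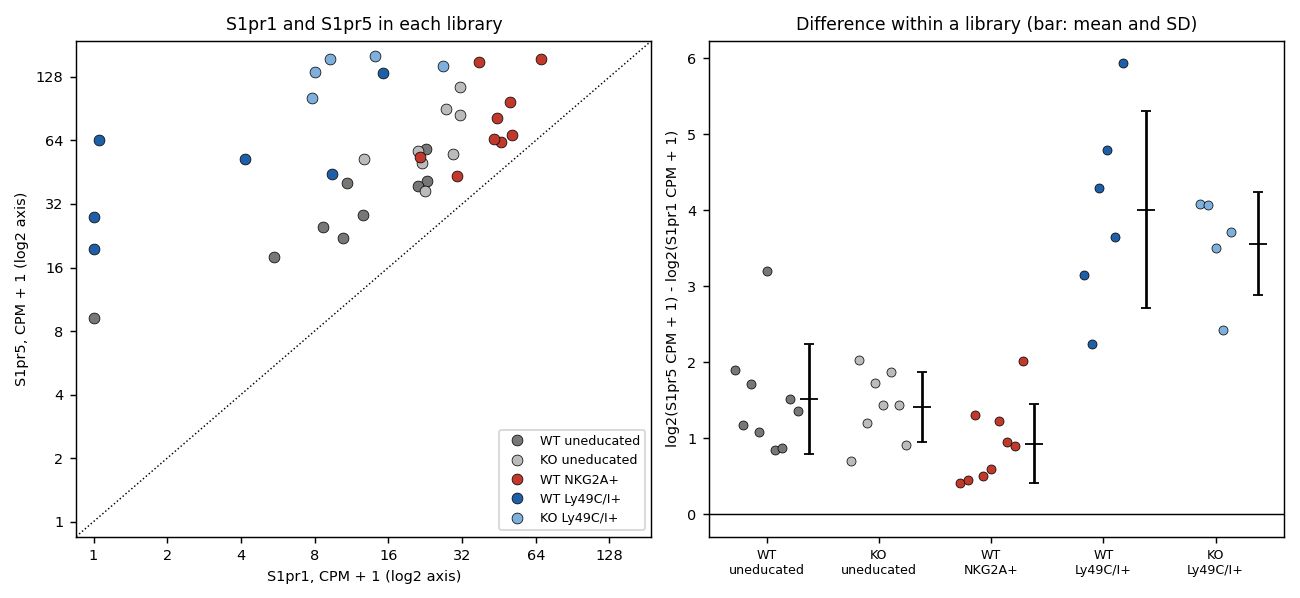
Left, S1pr5 against S1pr1 in each of the 37 libraries as CPM + 1 on log2 axes, coloured by group, with the line of equal values dotted. Right, the difference of the 2 log2 values in each library by group, with its mean and SD as a bar; the 11 Ly49C/I+ libraries of both genotypes lie between 2.24 and 5.94, and the 9 NKG2A+ libraries between 0.411 and 2.01.

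The wider pathways were read from lists chosen with earlier results of these data known. Their counts stand beside the shares of all genes called, which were 7.47% upward and 7.56% downward in NKG2A+ against uneducated cells, 9.30% in either direction in WT Ly49C/I+ cells, and 7.34% upward and 8.99% downward in NKG2A KO Ly49C/I+ cells. Of 5 S1P receptors, S1pr2 was tested in every comparison and did not pass (log2 fold change 0.53, adjusted p = 0.264 in NKG2A+ cells), and S1pr3 was under the CPM filter in NKG2A+ cells. S1P metabolism and transport had 3 of 8 genes above the filter in each comparison of educated with uneducated cells, and none of them passed. Of 8 egress regulators, all were tested and 3 rose in NKG2A+ cells, with a median log2 fold change of 0.23 against 0.01 over all genes. Klf2, the regulator of S1pr1, rose by 1.02 (adjusted p = 0.0017), Zeb2, which acts with T-bet in NK cell maturation, by 1.33 (adjusted p = 0.00783) and Tbx21 by 0.45 (adjusted p = 0.0395). The call of Tbx21 was lost in 16 of 29 other settings, the fit without the libraries with few genes among them.

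In Ly49C/I+ cells of WT mice 1 of the 8 egress regulators passed, Tbx21 at 0.52 (adjusted p = 0.0472), lost in 16 of 26 other settings. In NKG2A KO mice Tbx21 rose by 0.44 (adjusted p = 0.00511). Cd69, which retains S1pr1 protein inside the cell, rose there by 0.71 (adjusted p = 0.0188), a call lost in 5 of 24 other settings. In the same cells Ccr7, the receptor for lymph node homing, fell by 2.16 (adjusted p = 0.000642) and Gpr183, an oxysterol receptor, fell by 0.58 (adjusted p = 0.00431). In Ly49C/I+ cells of WT mice Ccr7 had a log2 fold change of -1.79 that did not pass (adjusted p = 0.165). Klf2 did not pass in Ly49C/I+ cells of either genotype, and its ranges overlapped with those of uneducated cells. In WT mice its median was 171 against 116 CPM, where that of S1pr1 was 1.61 against 9.82 CPM. In NKG2A KO mice the Klf2 median was 389 against 163 CPM, where that of S1pr1 was 8.22 against 24.0 CPM. These are values beside S1pr1 RNA, whose fall in NKG2A KO mice was lost in 17 of 24 other settings.

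Of 23 chemokine receptors, 7 were tested and 5 rose in NKG2A+ cells, with a median log2 fold change of 1.12. Besides Cxcr3, Cxcr4 and Cx3cr1 these were Cxcr6 (2.86, adjusted p = 2.68e-05), the receptor for Cxcl16, and Ccrl2 (0.52, adjusted p = 0.0369), whose call was lost in 11 of 29 other settings, again with the fit without the libraries with few genes among them. In Ly49C/I+ cells Ccrl2 alone passed in WT mice (0.63, adjusted p = 0.0426), lost in 12 of 26. In NKG2A KO mice Ccrl2 rose with Cx3cr1, and Ccr7 fell. Of 9 ligands of the 8 genes, Cxcl10 alone was above the filter in NKG2A+ cells, and it did not pass there (-0.07, adjusted p = 0.89). Cxcl10 had a log2 fold change of 0.77 in WT Ly49C/I+ cells (adjusted p = 0.173), and in NKG2A KO Ly49C/I+ cells it rose by 0.87 (adjusted p = 0.0217), with 5 of 5 libraries above all 8 uneducated ones.

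**Figure D4:**
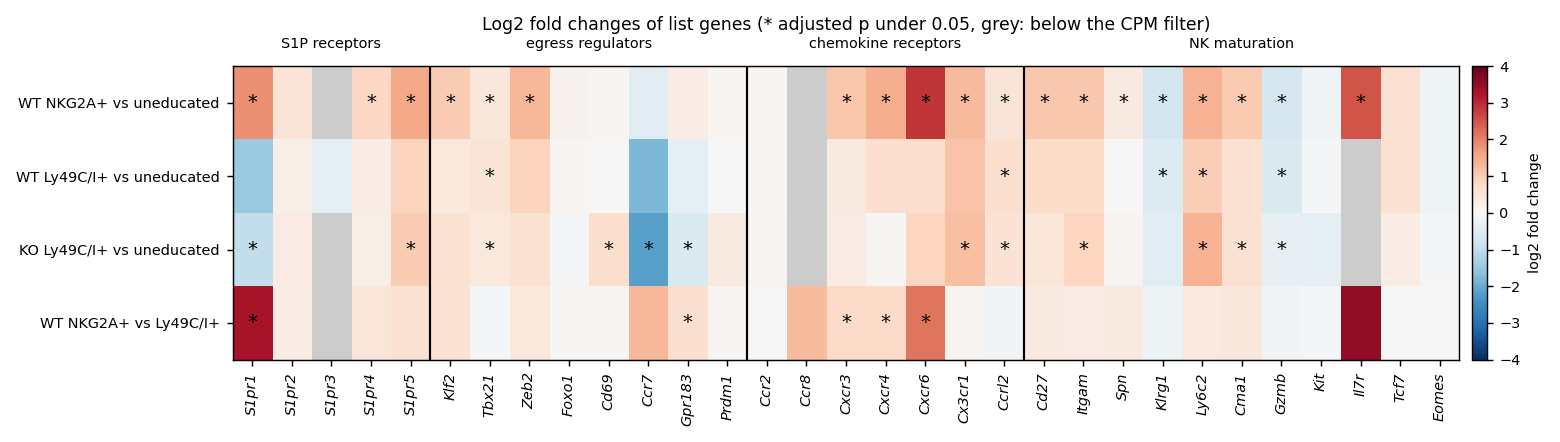
Log2 fold change (colour, from -4 to 4) of the 31 tested genes of 4 lists (horizontal axis) in 4 comparisons (vertical axis), with a star where the adjusted p was under 0.05 and grey where a gene was under the CPM filter. In NKG2A+ cells S1pr1, S1pr4 and S1pr5 carry a star beside Klf2, Tbx21 and Zeb2, whereas in NKG2A KO Ly49C/I+ cells S1pr1 is blue and S1pr5 red.

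Of 23 genes of receptor signalling, 3 rose and 1 fell in NKG2A+ cells: Gna13 (0.73), Rgs3 (0.52) and Dock2 (0.39) were higher and Rgs16 (-0.59) was lower, the Rgs genes being brakes on G-protein signalling. These 4 of 23 are near the 15.0% of all genes called in that comparison. In all, 6 rose in Ly49C/I+ cells of WT mice, namely Rgs1 (0.38), Rgs2 (0.51), Rgs3 (0.67), Arhgef1 (0.40), Arrb2 (0.46) and Traf5 (0.87), an adaptor of Cd27-type receptors, of which Arrb2 and Rgs2 were each lost in 9 of 26 other settings. Of 13 NK maturation genes in NKG2A+ cells, 8 rose and 2 fell. Cd27 rose, and so did Itgam (1.08, adjusted p = 0.000538), which encodes CD11b, a marker of later stages whose highest cells the gate left out, with Ly6c2 (1.38), Cma1 (1.05), Il7r (2.51), Spn (0.37), Zeb2 and Tbx21. Klrg1 and Gzmb, both genes of mature NK cells, fell by 0.73 and fell by 0.68. In Ly49C/I+ cells of WT mice Ly6c2 (0.98) and Tbx21 rose and Klrg1 (-0.54) and Gzmb (-0.58) fell, whereas Cd27 did not pass.

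Marker lists were read in the same way. NK cell markers rose in 5 of 8 cases in NKG2A+ cells (Nkg7, Gzma, Klrk1, Klrb1c and Ncr1) and Prf1 fell, while in WT Ly49C/I+ cells Klrk1 rose and Prf1 fell. Of 6 genes of type 1 innate lymphoid cells and tissue residency, Il7r, Cd200r1 and Cxcr6 rose in NKG2A+ cells and Itga1 fell (-0.36, adjusted p = 0.0222). Pecam1, on the endothelial list but also a leukocyte gene, fell in both educated WT populations (-0.76 and -0.69), while Cdh5, Kdr and Tek had a median of 0 CPM in every group. In WT Ly49C/I+ cells Dusp1, Junb and Ier2 of the immediate early genes rose, as did Trbc2 of the T cell list (0.36, adjusted p = 0.0415), whose call was lost in 12 of 26 other settings. B cell, neutrophil and trophoblast markers were all under the CPM filter, and 1 of 5 stromal markers was tested and did not pass. The summed CPM of the stromal markers was between 2.45 and 896 in NKG2A+ libraries (median 8.18), against 0.792 to 92.5 in WT uneducated ones. It was 497, 53.6, 284 and 896 CPM in NKG2A+ libraries 1 to 4 and at most 8.18 in the other 5, and its part in the results of NKG2A+ cells was not tested.

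For each of the 8 genes, up to 3 genes most like it were named by the Pearson r of log2(CPM + 1) over the 37 libraries among 9287 genes. These libraries share groups, depth and preparation, so r is a description. Cxcr4 ran with Cd9 (0.852) and Slfn2 (0.839). S1pr5 was followed by Itgb2 (0.877), Ptger4 (0.871) and D1Ertd622e (0.864), and Cd27 by Tpst2 (0.879), Btg1 (0.873) and Limd2 (0.868). Cxcr3 lay nearest to Igtp (0.872), an interferon-induced GTPase, then Prkcq (0.849) and Ly9 (0.847). S1pr4 went with Emp3 (0.823), Ccl5 (0.809) and Nkg7 (0.799). S1pr1 had lower values, with Klra3 (0.766), Plxnc1 (0.756) and Rras2 (0.726), as had Cx3cr1, with Cma1 (0.769), Itga4 (0.735) and Dennd5a (0.73). Ccr2 stood apart, with Sh2d1a at 0.682 and Itgb1 at 0.666.

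Among the 8 genes themselves, Cxcr4 and Cd27 were the most alike over all libraries (r = 0.814). With group means removed their r was 0.703, below the 0.718 of S1pr1 and S1pr5. Over all libraries Ccr2 was near 0 or negative with each of the other 7, between -0.264 with S1pr4 and 0.0722 with Cxcr3. S1pr1 and Cd27, which both rose in NKG2A+ cells, had an r of 0.208 over all libraries.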

How the data were processed

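RNA of uNK cells from 37 sorted samples was made into libraries with SMART-Seq v4 and Nextera XT. Reads were trimmed by the authors with Trim Galore 0.5.0 and mapped with STAR 2.7.1 to GRCm38, and the authors used edgeR 3.26.5 in R 3.6.1 with CQN for their own tests, per the labels and the study's methods. The authors deposited raw read counts per gene for each library. For the counting program and its strand setting, the sources used here give nothing. Lines that name no gene held between 18.9% and 23.6% of reads and were left out. The 8 genes and the lists were chosen with earlier results of these data known, and a few list genes and like genes are not reported here.

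The test was edgeR 4.0.16 (R 4.3.3, TMM, quasi-likelihood, Benjamini-Hochberg over all genes tested, threshold 0.05), fitted to the groups being compared and to genes that reached 5 CPM in a share of 0.5 or more of their libraries. The SE is the log2 fold change divided by the root of the F statistic. All 8 genes passed this filter in every comparison, so an exact test planned for genes under it had nothing to test. The WT Ly49C/I+ libraries carry the numbers 1, 2, 4, 5, 7 and 8 of their descriptions, and WT uneducated library 5 that of its title. The text names all 8 genes, up to 3 genes most like each, and every list gene that passed in a WT educated population; the Cxcr3, Cxcr4 and S1pr1 values without single libraries and the genes of NKG2A KO mice were chosen after seeing them. The fits were checked on simulated data. Other settings were the likelihood ratio test, DESeq2 1.42.0, RLE factors, at least 1 CPM or no filter, all groups in 1 fit, the replicate number as a block, an offset for GC content and length in place of CQN, and left-out libraries. Shares at a count of 0 allow up to 3 counts per library, which covers counting error only, since amplified reads without molecular identifiers are not independent. Positions and lengths came from GENCODE M21 and promoters from RefSeq.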

Additional observations from a re-analysis of the deposited data

Results flagged for a closer look

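Within-group values were screened by the gap of the highest or lowest sample to its nearest neighbour, divided by the range of the group. Of 40 combinations of gene and group 2 stood apart, and chance alone gives about 1 in 20, which is 2. S1pr4 in WT uneducated library 5 was at 47.3 CPM, against 12.8 to 28 CPM in the other 8 libraries. This is 1 of the 4 libraries with few genes. Ccr2 in NKG2A KO Ly49C/I+ library 4 was at 439.9 CPM, against 634 to 673 CPM in the other 4.

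Effects against uneducated cells differed between the 2 educated populations of WT mice for 3 genes, by the direct test. The log2 difference of NKG2A+ and Ly49C/I+ cells was 3.31 for S1pr1, 0.75 for Cxcr3 and 0.76 for Cxcr4, each higher in NKG2A+ cells.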

How the results depend on the processing

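The 7 rises in NKG2A+ cells kept their direction and their call in each of 29 alternatives, and S1pr5 in NKG2A KO Ly49C/I+ cells in each of 24. Cx3cr1 in the latter cells lost its call in 1 of 24. The calls of S1pr1, Cxcr3 and Cxcr4 between the educated populations and of S1pr1 in NKG2A KO mice lay close to the threshold, as given beside them. Leaving out 1 library at a time was limited to 100 fits, so for the genotype difference of the Ly49C/I+ effect only the 11 Ly49C/I+ libraries were left out in turn. A pseudocount and RLE factors for genes under the CPM filter were not tried, since no member was under it. Of the list genes named, the calls of Tbx21, Ccrl2, Nkg7 and Ier2 were each lost in 10 or more of 29 alternatives in NKG2A+ cells. The cause of these changes was not tested.

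Members called in WT Ly49C/I+ against uneducated cells came to 2 with all 5 groups in 1 fit. All genes called there came to 864, and to 451 with no filter, 1528 with all groups, and between 461 (without Ly49C/I+ library 7) and 1234 with 1 library left out; without uneducated library 1, 3 or 4 they came to 573, 534 and 575, and without Ly49C/I+ library 5 to 564. In NKG2A+ against Ly49C/I+ cells 3 members became 1 at 1 CPM, 0 with no filter and 1 without the libraries numbered 5, and between 0 and 3 with 1 library left out, 0 without NKG2A+ library 1, 5 or 7 or Ly49C/I+ library 2 or 7. All genes called there came to 254, and to 442 (likelihood ratio), 558 (DESeq2), 104 (no filter), 140 (GC and length, 53 of them higher in NKG2A+ cells, against 122 of 254), 124 (without number 5) and between 147 and 306 with 1 library left out, 168 and 163 without NKG2A+ library 2 or 8, 154, 155 and 147 without Ly49C/I+ library 2, 5 or 7. In NKG2A KO Ly49C/I+ against uneducated cells 3 members became 1 with all groups, and 1519 genes became 889 with no filter and between 967 (without Ly49C/I+ library 4) and 1763 with 1 library left out. Between genotypes, genes called came to 1 by the likelihood ratio test and 1 by DESeq2 in uneducated cells, and to 62, 118 and 18 (all groups) in Ly49C/I+ cells, where 1 library left out gave between 0 and 15 genes (15 without WT library 1, 2 without NKG2A KO library 8) and between 0 and 1 member, and to 1 by DESeq2 for the difference of effects.

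Directions turned only for values near 0 that did not pass. With the GC and length offset, Ccr2 was at -0.13 in NKG2A+ against uneducated cells and at -0.021 in NKG2A KO Ly49C/I+ against uneducated cells. With 1 library left out, Cx3cr1 ranged from -0.14 to 0.57 and Ccr2 from -0.090 to 0.048 in NKG2A+ against Ly49C/I+ cells, Cxcr4 from -0.069 to 0.21 in NKG2A KO Ly49C/I+ against uneducated cells and from -0.069 to 0.21 between genotypes in Ly49C/I+ cells, where Ccr2 ranged from -0.15 to 0.00083. Without the 4 libraries with few genes, S1pr5 over S1pr1 differed by -0.515 between NKG2A+ and WT uneducated cells, and by 0.11 between genotypes in uneducated cells.

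Same-numbered libraries did not deviate together in every pair (correlations of -0.03 to 0.24 for NKG2A+ with uneducated cells, 6 of 9 best with their own number, 0.07 to 0.19 for WT Ly49C/I+ with uneducated, 5 of 6, and 0.03 to 0.11 for NKG2A+ with WT Ly49C/I+, 6 of 6, which is a hint from the data and not the design), nor did any label tie the numbers to an animal. With the replicate block, 2 members (Cxcr3 and Cxcr4) were called in WT Ly49C/I+ against uneducated cells and 3 (Cd27 too) with block and GC offset (Cxcr4 and Cd27 were higher in 6 of 6 same-numbered pairs), 150 genes in NKG2A+ against Ly49C/I+ cells with both, and 759 genes and 587 with both in NKG2A KO Ly49C/I+ cells. Under the block Ccr2 was at 0.088 in NKG2A+ against Ly49C/I+ cells and Cxcr4 at -0.18 in NKG2A KO mice, and with both Cxcr4 was at -0.060 and Ccr2 at -0.022 there and Ccr2 at -0.13 in NKG2A+ against uneducated cells.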
